A study of Mus musculus with 12 samples.

Results

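The 28 genes described here make cholesterol from acetyl-CoA, or sense and set the level of that synthesis through the transcription factor SREBP2. They were chosen by symbol from a list of 29 that covers the enzymes by step, the SREBP2 control proteins and a pair of genes for sterol transport and storage. One listed symbol, Msmo1, is the current name of Sc4mol, under which the counts are entered, and was not found as a separate entry. The 28 are among 35791 genes counted in small bowel of male C57BL/6 mice, and all 28 passed the filter on low counts, as did 13154 genes in all.

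The mice were 8 to 10 weeks old at ileocecal resection, which removes the end of the ileum and the cecum, and no genotype other than the strain is given. RNA was sequenced in 12 libraries, 3 in each of 4 groups: Post 2'-FL (8 weeks after resection, with 2'-fucosyllactose at 2.5 g/L from the day of surgery), Post control (8 weeks after resection, no supplement), Pre 2'-FL and Pre control (both labelled as taken before resection). The supplement, 2'-FL, is a fucosylated milk sugar, and the series asks how the bowel adapts to resection with and without it. All mice were put on a liquid diet a week after surgery and later on chow. Pre 2'-FL is labelled as supplemented although the supplement began on the day of resection, and the labels place every collection 8 weeks after resection, so the labels of single libraries were followed. Bowel segment, hour of collection and whether libraries came from separate mice are not given in the sources used here, so p-values measure the spread between libraries, which may be technical. Defining enterocyte markers were present in every library. Of 6 pancreas genes listed, Cela2a, Pnlip and Cpa1 were at 0 in all 12, whereas Cela1 was detected in all 12, with levels given below.

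Totals ran from 5663275 to 9385266 counts per library, and the members themselves held between 60 counts (Lss in Post control 1) and 4895 counts (Hmgcs1 in Post control 3). Levels are given in CPM, the share of a library's counts on a common scale, with TMM scaling. Changes are log2 differences with their standard error, and called genes are those whose adjusted p in edgeR's quasi-likelihood test, taken over all 13154 genes, was under 0.05. Transcript length went with group: Spearman's rho across genes between length and a gene's deviation from its own mean was between -0.60 and -0.44 in Post 2'-FL and between -0.21 and 0.35 in Post control, against 0.36 to 0.50 in Pre 2'-FL and 0.26 to 0.45 in Pre control. Each change is therefore also given from a fit corrected for length and GC content, called corrected here. In the members' own values Post control 1 stood apart: its summed level of the 20 pathway enzymes was 1274 CPM, against 3310 and 2605 CPM in Post control 2 and 3. Over all tested genes it did not: scatter between libraries (chi-square per degree of freedom) was 20.3 and 22.5 with Post control 2 and 3, against 35.7 between those. The length rho was -0.03, -0.21 and 0.35 in Post control 1, 2 and 3. Results that rest on Post control 1 are given with and without it. Since the members' values singled it out, counts without it are a description.

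Cholesterol is built from acetyl-CoA through mevalonate, isoprenoid pyrophosphates, squalene and lanosterol, and the same isoprenoids feed protein prenylation, dolichol and ubiquinone. SREBP2 is held in the endoplasmic reticulum by SCAP and the INSIG proteins while sterols are plentiful. When they fall, SCAP carries SREBP2 to the Golgi, where a pair of proteases release the part that enters the nucleus and switches on nearly every enzyme of the pathway. The small bowel is a major site of cholesterol synthesis, and its enterocytes also absorb cholesterol and esterify it for export.

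Promoters of 5 members are printed because members moved together and SREBP2 is known to act with the CCAAT-binding factor NF-Y. They show the single window that held the sterol element searched, genes that rose with several CCAAT boxes (Hmgcs1 with 4 and Mvk with 5) or 1 (Tm7sf2 and Insig1), and Scap, which holds none. RefSeq windows of 300 bases, from 250 before to 50 after the start on GRCm38.p6, were matched to 23 of the 28 members, all but Fdps, Fdft1, Sqle, Stard4 and Soat2. Those printed are Hmgcs1 at chr13:119690101-119690400 on the plus strand, Mvk at chr5:114444019-114444318 on the plus strand, Tm7sf2 at chr19:6067801-6068100 on the minus strand, Insig1 at chr5:28071162-28071461 on the plus strand and Scap at chr9:110333038-110333337 on the plus strand, each written 5′ to 3′ along the gene, with CCAAT (either strand) and the sterol element in capitals.
Hmgcs1: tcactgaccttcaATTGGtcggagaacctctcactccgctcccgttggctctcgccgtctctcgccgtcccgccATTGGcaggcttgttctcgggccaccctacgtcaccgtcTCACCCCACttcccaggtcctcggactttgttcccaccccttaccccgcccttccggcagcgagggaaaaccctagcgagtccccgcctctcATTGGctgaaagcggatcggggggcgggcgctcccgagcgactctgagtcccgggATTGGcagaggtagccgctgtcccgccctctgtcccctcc
Mvk: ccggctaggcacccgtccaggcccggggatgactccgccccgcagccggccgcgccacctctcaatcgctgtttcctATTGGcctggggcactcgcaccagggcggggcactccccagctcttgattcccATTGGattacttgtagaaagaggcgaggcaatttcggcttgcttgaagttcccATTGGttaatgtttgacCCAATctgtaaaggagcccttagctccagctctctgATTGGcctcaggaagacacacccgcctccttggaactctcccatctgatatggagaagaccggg
Tm7sf2: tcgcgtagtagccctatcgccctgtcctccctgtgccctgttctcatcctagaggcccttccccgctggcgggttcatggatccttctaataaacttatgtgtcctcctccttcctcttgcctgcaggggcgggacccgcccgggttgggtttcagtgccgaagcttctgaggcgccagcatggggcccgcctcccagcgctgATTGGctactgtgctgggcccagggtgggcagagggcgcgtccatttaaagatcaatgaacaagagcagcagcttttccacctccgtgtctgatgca
Insig1: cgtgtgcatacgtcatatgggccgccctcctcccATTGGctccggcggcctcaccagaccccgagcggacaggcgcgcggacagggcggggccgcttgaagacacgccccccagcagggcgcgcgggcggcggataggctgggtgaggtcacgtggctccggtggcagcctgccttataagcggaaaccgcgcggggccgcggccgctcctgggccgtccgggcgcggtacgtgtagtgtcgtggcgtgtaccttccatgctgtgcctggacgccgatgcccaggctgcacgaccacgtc
Scap: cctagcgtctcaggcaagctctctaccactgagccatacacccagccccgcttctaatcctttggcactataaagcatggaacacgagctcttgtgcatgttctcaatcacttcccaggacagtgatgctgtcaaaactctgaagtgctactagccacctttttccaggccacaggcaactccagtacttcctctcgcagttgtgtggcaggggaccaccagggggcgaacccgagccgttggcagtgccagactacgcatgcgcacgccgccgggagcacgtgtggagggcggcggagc
The sterol element, searched as TCACNCCAC on both strands, was in 1 of 23 members (Hmgcs1), against 1.44% of 27025 genes with a window. CCAAT was in 19 of 23 members, against 41.1% of genes, and occurred at least 2 times in 12 members, against 13.3% of genes. The 4 members without CCAAT were Acat2, Scap, Mbtps1 and Mbtps2, so that every enzyme with a window except Acat2 held the box. The box was also in members not called higher after resection as counted over both arms. Among them were Lbr with 2, Dhcr7 with 2 in one of its windows and Srebf2 with 1, while Acat2 was called higher without it. Whether the box goes with the changes was not tested. GGGCGG was in 20 of 23 members, against 38.2% of genes. No match of one of these motifs overlapped a match of another in the 29 windows of the members, some of which have several starts. These matches describe letters in short windows and show no binding.

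After resection, over both arms, transcripts of most cholesterol synthesis enzymes were higher, together with Insig1 and Insig2, while Srebf2 and Scap were lower as counted and, when corrected, above 0 and not called. Of the 28 members 19 rose and 2 fell in the 6 Post libraries relative to the 6 Pre libraries, beside 25.3% of all tested genes higher and 31.1% lower (56.4% in either direction). Corrected, 24 rose, beside 24.9% of all genes, and the other 4, among them Srebf2 and Scap, were not called. The median change of the members was 0.87 (1.01 corrected), against -0.10 (0.03 corrected) over all tested genes. In bulk tissue, fewer cells of a type and less RNA per cell cannot be told apart. The 7 members whose Post libraries all lay above every Pre library were Pmvk, Idi1, Tm7sf2, Ebp, Sc5d, Insig1 and Insig2, beside 8.02% of all genes with such a gap upward and 8.94% with one downward. Summed over the 20 enzymes, the level was 2594, 2042 and 2706 CPM in Post 2'-FL and 1274, 3310 and 2605 CPM in Post control, against 872, 868 and 1011 CPM in Pre 2'-FL and 1275, 1390 and 1235 CPM in Pre control. All Post 2'-FL libraries and a pair of Post control libraries lay above every Pre library, and Post control 1 lay among the Pre control libraries.

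**Figure D1:**
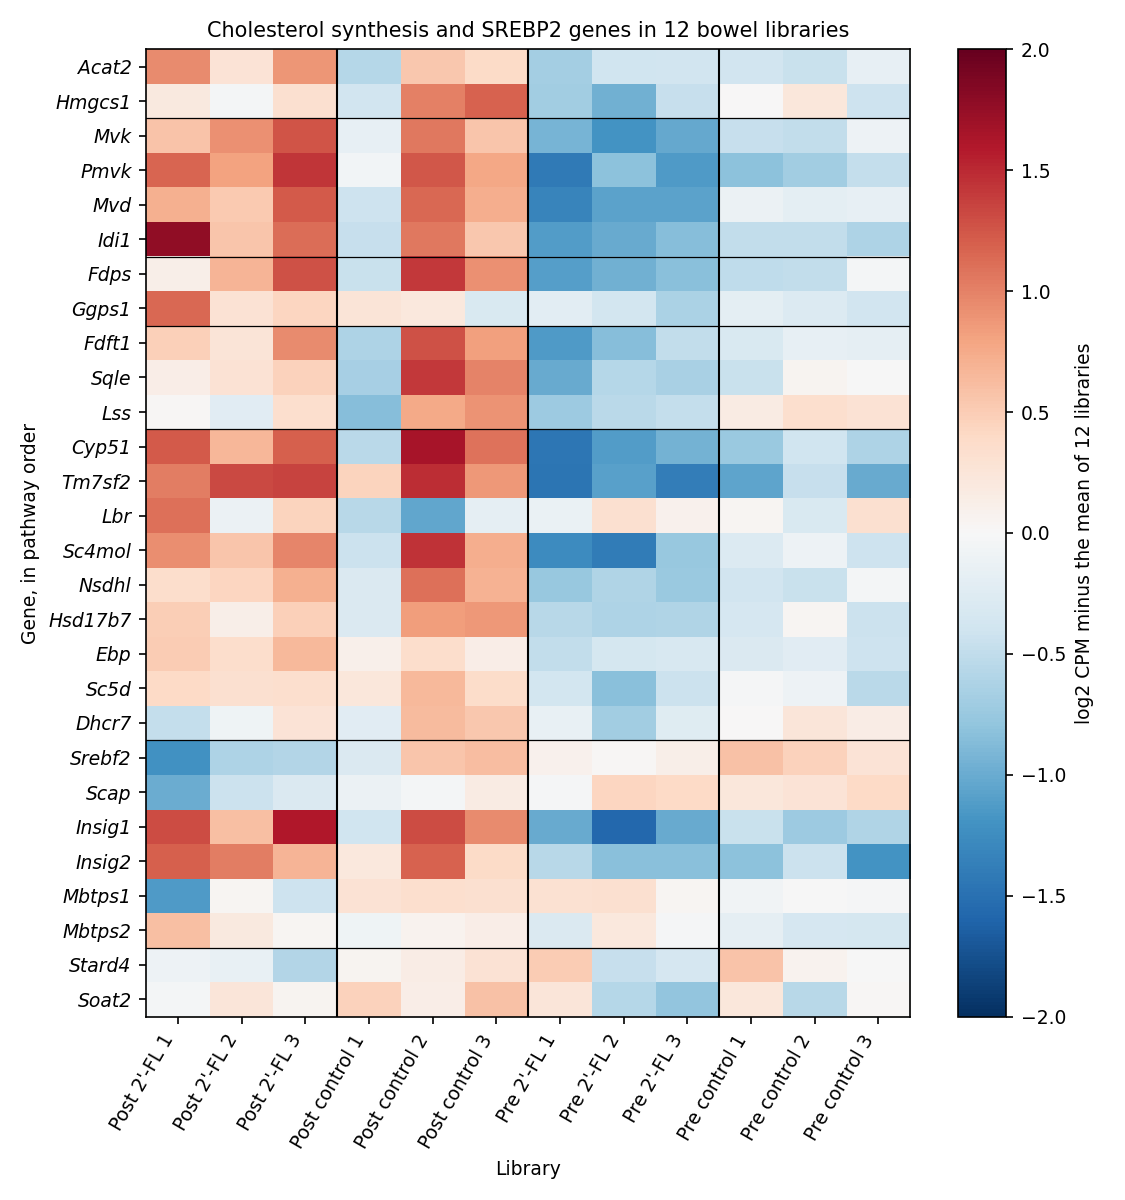
Heat map of log2 CPM of the 28 members (rows, in pathway order, with lines between steps) in the 12 libraries (columns), each centred on the gene's mean over the libraries. Most enzymes and Insig1 and Insig2 are above their mean in Post 2'-FL and in Post control 2 and 3, Post control 1 is below it for most enzymes, and Srebf2, Scap and Mbtps1 are lowest in Post 2'-FL 1 in these uncorrected values, with changes of the other sign after resection once corrected.

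At the entry of the pathway, Acat2, the cytosolic thiolase that joins acetyl-CoA units, averaged 54.8 ± 12.9 CPM in Post 2'-FL and 37.8 ± 13.7 CPM in Post control, against 23.7 ± 2.70 CPM in Pre 2'-FL and 26.5 ± 2.76 CPM in Pre control (SD, n = 3 each). It was called in the 2'-FL arm with a change of 1.21 ± 0.26 (adjusted p = 0.00158), and in the control arm it had 0.51 ± 0.26 (adjusted p = 0.203). Hmgcs1, which adds the next acetyl unit to form HMG-CoA, was at 247, 210.2 and 271 CPM in Post 2'-FL and 165, 436 and 491 CPM in Post control, against 133, 110.3 and 158 CPM in Pre 2'-FL and 217, 251 and 162 CPM in Pre control. Its 2 highest libraries were Post control 2 and 3, and Post and Pre control libraries overlapped through Post control 1. The change in Hmgcs1 was 0.86 ± 0.32 in the 2'-FL arm (0.80 and not called when corrected) and 0.79 ± 0.32 in the control arm. The 2'-FL arm's call for Hmgcs1 was lost in 4 of the 12 fits that left out a library. Acat2 has a close copy in mouse, Acat3, and reads the copies share cannot be told apart here.

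All 4 enzymes that turn mevalonate into isoprenoid units rose over both arms. Mevalonate kinase, Mvk (Entrez 17855, chr5:114444264-114460591 on GRCm38, as are the positions that follow), was at 35.98, 45.9 and 58.2 CPM in Post 2'-FL and 21.7, 50.4 and 35.8 CPM in Post control, against 12.8, 10.6 and 12.03 CPM in Pre 2'-FL and 17.7, 17.4 and 22.7 CPM in Pre control. Every Post library except Post control 1 exceeded every Pre library. Phosphomevalonate kinase, Pmvk (Entrez 68603, chr3:89454541-89469014), was at 65.7, 51.4 and 79.4 CPM in Post 2'-FL and 28.4, 69.6 and 50.4 CPM in Post control, against 10.999, 16.6 and 13.4 CPM in Pre 2'-FL and 16.7, 18.2 and 21.2 CPM in Pre control. Here all 6 Post libraries lay above all 6 Pre libraries, with Post control 1 closest to them. The changes over both arms were 1.44 ± 0.19 (adjusted p = 6.65e-05) for Mvk and 1.83 ± 0.20 (adjusted p = 2.54e-05) for Pmvk, and corrected 1.43 and 1.54. Mvd, the decarboxylase that yields isopentenyl pyrophosphate, averaged 44.3 ± 11.7 CPM in Post 2'-FL and 37.8 ± 17.99 CPM in Post control, against 11.1 ± 1.11 CPM in Pre 2'-FL and 22.1 ± 0.548 CPM in Pre control, with a change of 1.39 ± 0.22 (adjusted p = 0.000165) over both arms. Idi1, the isomerase that makes the second isoprenoid unit, was at 493, 210.3 and 311 CPM in Post 2'-FL and 104, 297 and 207 CPM in Post control, against 65.9, 71.7 and 79.6 CPM in Pre 2'-FL and 102, 102 and 93.8 CPM in Pre control. Post 2'-FL 1 was the highest library and Post control 1 exceeded the highest Pre library by under 2 CPM. Idi1 changed by 1.63 ± 0.24 (adjusted p = 0.00011) over both arms and by 1.40 corrected.

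The prenyl chain enzymes rose in the 2'-FL arm and over both arms. Farnesyl pyrophosphate synthase, Fdps, averaged 179 ± 71.3 CPM in Post 2'-FL and 186 ± 103 CPM in Post control, against 54.05 ± 5.09 CPM in Pre 2'-FL and 84.1 ± 16.4 CPM in Pre control, a change of 1.73 ± 0.38 (adjusted p = 0.00166) in the 2'-FL arm and 1.14 ± 0.37 (adjusted p = 0.061) in the control arm. Ggps1, which makes the longer geranylgeranyl chain used to modify small GTPases, changed less, by 0.71 ± 0.17 over both arms, and its highest library was Post 2'-FL 1 at 59.7 CPM. Of the 3 enzymes from farnesyl pyrophosphate to lanosterol, squalene synthase (Fdft1) and squalene epoxidase (Sqle), a control point of the pathway, rose over both arms by 1.15 ± 0.25 and 0.98 ± 0.25. Sqle was at 110.0, 122 and 138 CPM in Post 2'-FL and 63.3, 266 and 199 CPM in Post control, against 49.7, 67.04 and 64.04 CPM in Pre 2'-FL and 73.9, 104 and 99.2 CPM in Pre control. Post control 2 and 3 were the highest libraries and Post control 1 lay below all Pre control libraries. Lanosterol synthase, Lss, had the fewest counts of the 3 and averaged 17.5 ± 3.47 CPM in Post 2'-FL and 22.8 ± 11.8 CPM in Post control, against 11.2 ± 0.977 CPM in Pre 2'-FL and 20.1 ± 1.15 CPM in Pre control. The change of Lss over both arms was 0.41 ± 0.23 (adjusted p = 0.14) as counted and 1.04 (adjusted p = 0.00294) corrected. Without Post control 1 Lss was called as counted, with 0.65 (adjusted p = 0.00299) over both arms and 0.72 (adjusted p = 0.00927) in the 2'-FL arm. Post control 1 is not part of the 2'-FL arm and acts there only through the spread and scaling shared by all libraries. In that arm the change of Lss was 0.64 ± 0.34 with the library and had an SE of 0.20 without it.

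From lanosterol to cholesterol, 7 of 9 enzymes rose over both arms. Tm7sf2, a sterol reductase of the endoplasmic reticulum (Entrez 73166, chr19:6062821-6067850), had the largest change of all members as counted and was at 58.1, 71.3 and 72.7 CPM in Post 2'-FL and 38.98, 79.3 and 52.01 CPM in Post control, against 10.4, 13.4 and 11.01 CPM in Pre 2'-FL and 13.7, 20.8 and 14.3 CPM in Pre control. Its lowest Post library, Post control 1, stood at 39.0 CPM, above the highest Pre library at 20.8 CPM. The change in Tm7sf2 was 2.17 ± 0.18 (adjusted p = 9.15e-06), and 1.95 corrected. Cyp51, the cytochrome P450 that demethylates lanosterol (Entrez 13121, chr5:4080674-4104697), was at 298, 203 and 293 CPM in Post 2'-FL and 87.7, 402 and 270.5 CPM in Post control, against 46.8, 58.8 and 66.8 CPM in Pre 2'-FL and 76.3, 96.8 and 83.4 CPM in Pre control. Post control 1 fell within the Pre control range and the other 5 Post libraries were at least 203 CPM. Cyp51 changed by 1.89 ± 0.27 (adjusted p = 0.000104), and by 2.16 corrected, the largest corrected change among the members. Sc4mol, the methylsterol oxidase, and Nsdhl and Hsd17b7, which with it remove methyl groups from the sterol ring, changed by 1.49 ± 0.25 (adjusted p = 0.000233), 1.05 ± 0.19 (adjusted p = 0.000478) and 0.88 ± 0.18. The isomerase Ebp and the desaturase Sc5d changed by less but with narrow spread, by 0.70 ± 0.11 (adjusted p = 0.00019) and 0.76 ± 0.14 (adjusted p = 0.000502), and neither overlapped between Post and Pre. Ebp averaged 107 ± 10.9 CPM in Post 2'-FL and 86.7 ± 8.03 CPM in Post control, against 57.7 ± 3.37 CPM in Pre 2'-FL and 61.1 ± 4.06 CPM in Pre control.

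A pair of enzymes of this stretch was not called over both arms as counted. Dhcr7, the reductase that ends one route to cholesterol, had 0.25 ± 0.17 (adjusted p = 0.221), and was called when corrected, with 0.49 (adjusted p = 0.0206), or as counted without Post control 1, with 0.42 (adjusted p = 0.0445). Lbr, the lamin B receptor, which has the same reductase activity as Tm7sf2 and also anchors chromatin at the inner nuclear membrane (Entrez 98386, chr1:181815315-181842401), was at 81.2, 34.8 and 51.5 CPM in Post 2'-FL and 25.6, 18.3 and 33.4 CPM in Post control, against 34.4, 47.2 and 40.2 CPM in Pre 2'-FL and 38.8, 30.5 and 46.95 CPM in Pre control. The 2 lowest values were in Post control and the 2 highest in Post 2'-FL. The change in Lbr over both arms was -0.06 ± 0.21 (adjusted p = 0.816), and no arm taken alone was called. Exons of Tm7sf2 overlap those of Vps51 on the same strand by 532 bases, and those of Cyp51, Fdft1, Ggps1 and Lbr overlap Akap9, Ctsb, Arid4b and Dnah14 on the other strand by 166, 774, 257 and 440 bases. Fdps and Mbtps2 overlap Gm43738 and Yy2 on the same strand by 1124 and 2867 bases. The strand used in counting is not given in the sources used here, so reads of such neighbours cannot be told apart.

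The SREBP2 control genes split. Insig1 and Insig2, whose proteins hold SCAP and SREBP2 in the endoplasmic reticulum, rose. Insig1, itself a SREBP2 target (Entrez 231070, chr5:28071412-28078662), was at 267, 164 and 328 CPM in Post 2'-FL and 81.8, 266 and 208 CPM in Post control, against 53.7, 36.4 and 53.9 CPM in Pre 2'-FL and 79.1, 65.5 and 71.6 CPM in Pre control. Post control 1 exceeded the highest Pre library by under 3 CPM and the other Post libraries were at least 164 CPM. Insig2 (Entrez 72999, chr1:121304353-121332662) was at 134, 119 and 93.4 CPM in Post 2'-FL and 67.3, 132 and 76.3 CPM in Post control, against 40.01, 32.8 and 32.7 CPM in Pre 2'-FL and 33.2, 43.4 and 25.7 CPM in Pre control, again with all Post above all Pre libraries. The changes were 1.88 ± 0.25 (adjusted p = 6.61e-05) for Insig1 and 1.57 ± 0.19 (adjusted p = 3.37e-05) for Insig2, and corrected 1.91 and 1.49.

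Srebf2, which encodes SREBP2 (Entrez 20788, chr15:82147269-82205379), was at 35.98, 54.2 and 55.3 CPM in Post 2'-FL and 67.8, 122 and 128 CPM in Post control, against 88.7, 84.2 and 90.3 CPM in Pre 2'-FL and 124, 115 and 101 CPM in Pre control. Its 3 lowest libraries were the Post 2'-FL ones, and Post control 2 and 3 lay at the upper end of Pre control or above it. Over both arms Srebf2 fell by 0.48 ± 0.17 as counted (adjusted p = 0.0246), whereas the corrected change had the other sign, 0.38 (adjusted p = 0.0529). Without Post control 1 the counted change was -0.31 and was no longer called, and corrected without that library it was 0.50 and was called higher. Scap, the escort of SREBP2 (Entrez 235623, chr9:110333288-110384949), was at 14.2, 20.9 and 23.1 CPM in Post 2'-FL and 25.9, 27.6 and 31.8 CPM in Post control, against 27.7, 38.1 and 37.1 CPM in Pre 2'-FL and 33.1, 34.2 and 37.1 CPM in Pre control. The Post 2'-FL libraries were again the lowest 3, and the change was -0.55 ± 0.14 (adjusted p = 0.00486) as counted and 0.22 (adjusted p = 0.162) corrected. Mbtps1 and Mbtps2 encode the Golgi proteases that cut SREBP2, and over both arms they had -0.15 ± 0.16 (adjusted p = 0.435) and 0.32 ± 0.15 (adjusted p = 0.0803), neither called, whereas corrected both rose, with 0.42 (adjusted p = 0.015) and 0.34 (adjusted p = 0.0471). Transcripts of Srebf2, Scap and Mbtps1 are 5077, 4227 and 4336 bases long, and those of Pmvk and Tm7sf2, whose corrected changes were smaller, 1194 and 1471 bases. Length alone did not sort the members: Ggps1 and Mbtps2, at 4244 and 4797 bases, had 0.71 and 0.32 as counted and 0.64 and 0.34 corrected. Mvk, at 1660 bases, had 1.44 and 1.43. GC content, also in the correction, was 57.9%, 59.1% and 52.4% in Srebf2, Scap and Mbtps1, and the parts of length and GC were not separated.

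**Figure D2:**
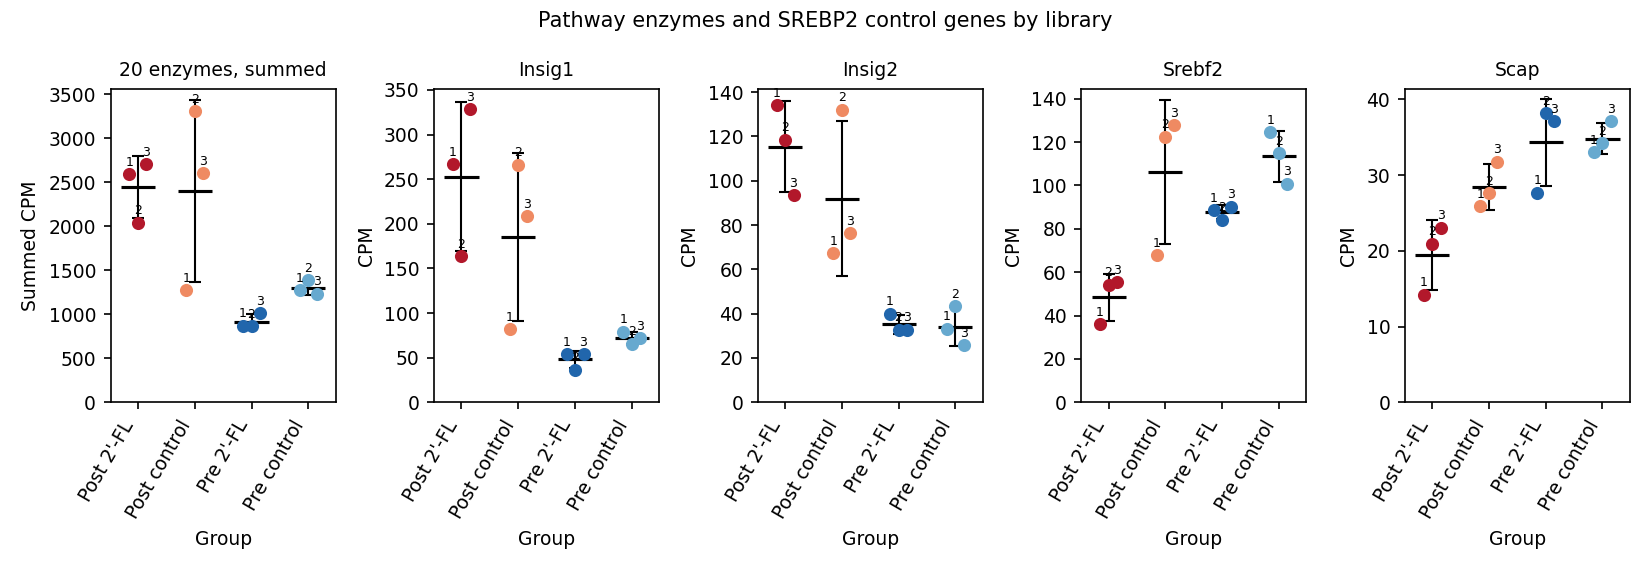
Summed CPM of the 20 enzymes and CPM of Insig1, Insig2, Srebf2 and Scap on linear axes from 0, for the 4 groups. Points are libraries with their replicate number, and bars are the mean and SD of 3 libraries. Insig2 is higher in every Post library than in any Pre library, the enzyme sum of Post control 1 lies with Pre control, and Srebf2 and Scap are lowest in Post 2'-FL in these uncorrected values, with changes of the other sign after resection once corrected.

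Neither gene for transport and storage was called as counted. Stard4, a cytosolic sterol carrier, averaged 87.2 ± 15.2 CPM in Post 2'-FL and 117 ± 9.89 CPM in Post control, against 102 ± 39.9 CPM in Pre 2'-FL and 123 ± 28.5 CPM in Pre control. Soat2, the enterocyte enzyme that esterifies cholesterol and is distinct from the thiolase gene Acat2, averaged 209 ± 20.7 CPM in Post 2'-FL and 258 ± 39.8 CPM in Post control, against 158 ± 63.7 CPM in Pre 2'-FL and 186 ± 48.1 CPM in Pre control. Over both arms they had -0.15 ± 0.18 (adjusted p = 0.493) and 0.43 ± 0.19 (adjusted p = 0.0624), and Soat2 was called when corrected, at 0.52 (adjusted p = 0.0308). In both genes the Pre 2'-FL libraries spread most, with 148, 75.6 and 82.5 CPM for Stard4 and 231, 131 and 113 CPM for Soat2.

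Per kilobase of transcript, over all 12 libraries, Sc4mol was the most abundant member at 94.8 ± 58.5 RPKM (SD over 12 libraries), followed by Soat2 at 91.7 ± 24.7, Fdps at 91.0 ± 58.4, Hmgcs1 at 68.6 ± 33.7 and Idi1 at 58.9 ± 43.5 RPKM. These SDs include the differences between groups, and whether these neighbours differ was not tested. At the other end were Lss at 3.84 ± 1.49 and Mbtps2 at 2.51 ± 0.51 RPKM. Srebf2, at 17.5 ± 6.04 RPKM, was expressed below 17 other members. Most enzymes followed each other across libraries. As a description over 12 libraries that fall into groups, Pearson's r of a member with the mean of the other members was taken on uncorrected values. It was 0.98 for Cyp51, 0.97 for Nsdhl, 0.97 for Sc4mol, 0.97 for Mvd and 0.96 for Insig1, but -0.18 for Lbr, -0.20 for Srebf2, -0.57 for Scap and -0.32 for Mbtps1. The corrected changes of Srebf2, Scap and Mbtps1 over both arms were above 0, at 0.38, 0.22 and 0.42, and no corrected r was computed. The genes outside the set whose pattern was most like the members' mean were Aldoc, Map2k3, Upb1, Barx2 and Bglap3, with r between 0.908 and 0.927 over the same 12 libraries, also uncorrected.

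In the 2'-FL arm, 19 of 28 members rose and 3 fell after resection, beside 25.3% of all genes higher and 30% lower, and corrected 19 rose, beside 21.1% of all genes higher and 35.9% called in either direction. Of the 20 enzymes 17 rose, with a median change of 1.21 (1.26 corrected), against -0.13 (0.02 corrected) over all genes. The steepest changes were 2.54 ± 0.27 (adjusted p = 3.14e-05) for Tm7sf2, 2.40 ± 0.36 (adjusted p = 0.000137) for Insig1, 2.27 ± 0.29 (adjusted p = 5.78e-05) for Pmvk, 2.22 ± 0.34 (adjusted p = 0.000156) for Idi1 and 2.21 ± 0.39 (adjusted p = 0.000394) for Cyp51. Mvd and Mvk followed with 2.00 ± 0.32 (adjusted p = 0.000175) and 1.98 ± 0.28 (adjusted p = 8.76e-05). Sc4mol, Insig2 and Ebp changed by 1.95 ± 0.35 (adjusted p = 0.000445), 1.71 ± 0.27 (adjusted p = 0.000163) and 0.89 ± 0.16 (adjusted p = 0.000385). Corrected, these 10 genes changed by between 0.46 (Ebp) and 2.57 (Cyp51), all called. In 20 members the 3 Post 2'-FL libraries all lay above the 3 Pre 2'-FL libraries, beside 27.9% of all genes, and in 2, Srebf2 and Scap, below them, beside 33.7%. The 3 that fell as counted were control genes, Srebf2 with -0.85 ± 0.24 (adjusted p = 0.00743), Scap with -0.82 ± 0.21 (adjusted p = 0.00417) and Mbtps1 with -0.65 ± 0.23 (adjusted p = 0.0261), and corrected they had the other sign, at 0.45 (adjusted p = 0.107), 0.36 (adjusted p = 0.121) and 0.19 (adjusted p = 0.41). Mbtps2 was not called, with 0.32 ± 0.21 (adjusted p = 0.226). The call for Mbtps1 was lost in 9 of 12 fits without a library, that for Sqle in 3, and those for Srebf2 and Scap in none.

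In the control arm 7 of 28 members rose, beside 4.42% of all genes higher and 6.33% lower, and corrected 10 rose, beside 7.63%. They were Tm7sf2 with 1.80 ± 0.26 (adjusted p = 0.00217), Cyp51 with 1.57 ± 0.38 (adjusted p = 0.0225), Insig2 with 1.43 ± 0.26 (adjusted p = 0.00747), Pmvk with 1.40 ± 0.28 (adjusted p = 0.0106), Insig1 with 1.36 ± 0.35 (adjusted p = 0.0275), Mvk with 0.90 ± 0.27 (adjusted p = 0.0463) and Nsdhl with 0.89 ± 0.27 (adjusted p = 0.0478). Corrected, Nsdhl was not called, with 0.79 (adjusted p = 0.0665), and Fdft1, Hsd17b7, Sc5d and Mbtps1 were, with 1.14, 0.95, 0.79 and 0.65. The median change of the 20 enzymes was 0.84 (0.86 corrected), and 19 of 20 were above 0. Over all genes the median was -0.05 (0.05 corrected), and 6138 of 13154 were above 0 as counted. In 9 members all Post control libraries lay above all Pre control libraries and in 1, Scap, below them, beside 17.3% and 17.6% of all genes. The control genes other than the Insig pair were not called, with -0.10 ± 0.23 (adjusted p = 0.807) for Srebf2, -0.29 ± 0.20 (adjusted p = 0.349) for Scap, 0.35 ± 0.23 (adjusted p = 0.316) for Mbtps1 and 0.33 ± 0.21 (adjusted p = 0.309) for Mbtps2, and Srebf2 and Scap had the other sign when corrected (0.30 and 0.07).

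The control arm's count rests on single libraries. Post control 1 was the lowest of its group in 18 of 20 enzymes, with 6 enzymes above every Pre control library, 8 below and 6 within their range, whereas 19 and 18 of the 20 lay above in Post control 2 and 3, and 17, 16 and 20 in Post 2'-FL 1, 2 and 3. Without Post control 1, 15 members rose in the control arm as counted. When also corrected, 18 rose, beside 428 of all tested genes. As counted, Hmgcs1, Mvd, Idi1, Fdps, Fdft1, Sqle, Sc4mol and Hsd17b7 joined the called genes. Without Post control 2, 2 members were called, Tm7sf2 and Insig2, beside 265 of all genes. These 2 members kept their call in every fit that left out a library. The count of members was 4 without Post control 3, 3 without Pre control 2 or without Pre control 3, and 11 without Post 2'-FL 1. In the last fit 1843 of all genes were called, the most of any fit without a library, and 265 were the fewest. Over both arms the count of members without Post control 1 was 21 higher and 1 lower. Across the fits without a library, 3059 to 3582 of all genes were higher over both arms and 3383 to 4127 lower.

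**Figure D3:**
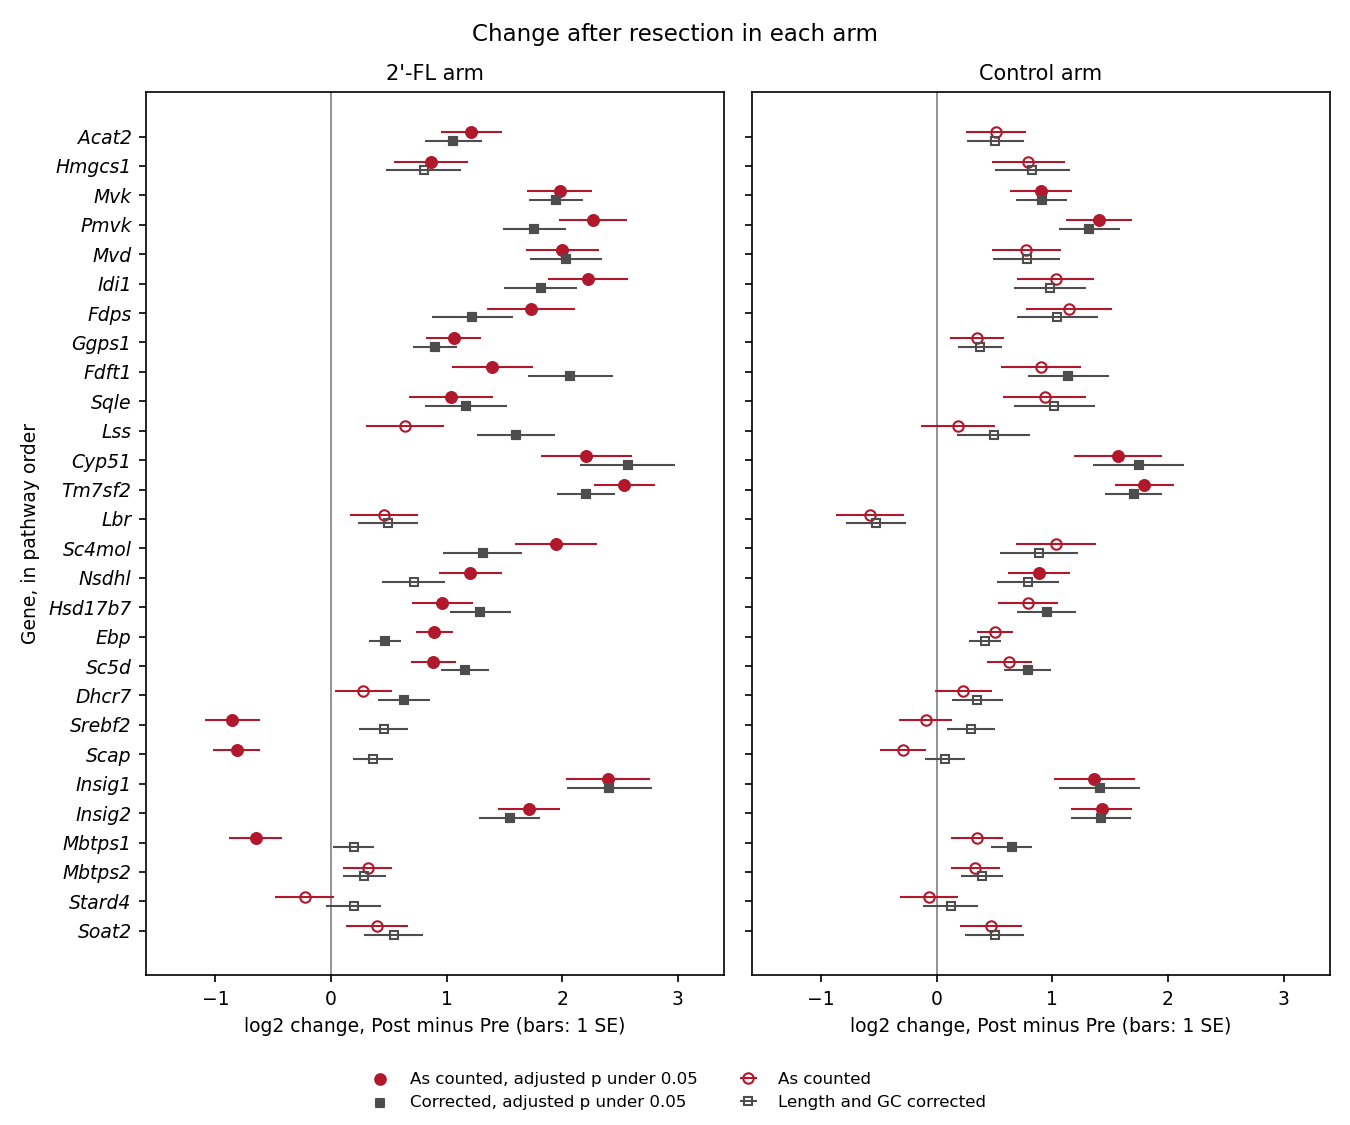
Log2 change after resection, Post minus Pre, with 1 standard error, for the 28 members in the 2'-FL arm (left) and the control arm (right). Circles are changes as counted and squares are corrected for length and GC, filled where the adjusted p was under 0.05. Srebf2, Scap and Mbtps1 lie below 0 in the 2'-FL arm as counted and above 0 when corrected, while Tm7sf2, Insig1 and Insig2 lie above 1 in both arms and both fits.

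Several marker groups moved with the comparison of Post and Pre, and their part in the members' changes was not tested. Of the 12 enterocyte markers, all detected, 3 rose and 4 fell over both arms (3 rose corrected, the others not called), and their summed level was 71928 to 74158 CPM in Post 2'-FL and 57992 to 72151 CPM in Post control, against 26391 to 49487 CPM in Pre 2'-FL and 36629 to 56402 CPM in Pre control. The largest difference within the sum was in Fabp2, a fatty acid carrier, at 33631 to 42484 CPM in Post 2'-FL and 13489.9 to 23540.1 CPM in Post control, against 3024 to 7909 CPM in Pre 2'-FL and 5912 to 10937 CPM in Pre control. Without Fabp2 the sums were 31048 to 39243 CPM in Post 2'-FL and 44502 to 51543 CPM in Post control, against 21973 to 41578 CPM in Pre 2'-FL and 30717 to 45465 CPM in Pre control. The 4 that fell as counted were Vil1, Lct, Anpep and Cdh1. Of 10 crypt and cycling markers 7 fell and 1 rose, with sums of 473 to 623 CPM and 341 to 449.9 CPM in Post 2'-FL and Post control, against 470.4 to 869.9 CPM and 515 to 746 CPM in Pre 2'-FL and Pre control. All 6 endothelial markers fell, to sums of 14.01 to 21.6 CPM in Post 2'-FL and 20.7 to 33.9 CPM in Post control, against 60.9 to 133 CPM in Pre 2'-FL and 21.2 to 107 CPM in Pre control. Of 13 tested clock genes, which follow the time of day as cholesterol synthesis does, 8 fell and 3 rose over both arms, with sums of 153 to 229.7 CPM in Post 2'-FL and 318 to 386 CPM in Post control, against 295 to 466 CPM in Pre 2'-FL and 559 to 709.7 CPM in Pre control. Dbp changed by -4.95 ± 0.46 and Arntl by 1.48 ± 0.20. The Pre groups also differed in these genes. Dbp was at 30.3, 3.91 and 16.1 CPM in Pre 2'-FL, against 112, 74.5 and 96.9 CPM in Pre control. Arntl was at 20.1, 33.1 and 26.3 CPM in Pre 2'-FL, against 12.1, 14.8 and 6.30 CPM in Pre control. Tef, Hlf, Nr1d2, Per1, Per2, Per3 and Cry2 were also lower in every Pre 2'-FL than in every Pre control library. Per2, for example, was at 9.67, 10.2 and 9.83 CPM in Pre 2'-FL, against 28.9, 55.8 and 31.3 CPM in Pre control. Npas2, Clock, Nr1d1 and Cry1 overlapped between the Pre groups. Of 7 leukocyte markers 4 fell over both arms, and their sum was mostly Igj, a plasma cell gene, at 1173 to 1949 CPM in Post 2'-FL and 327 to 992 CPM in Post control, against 234 to 837 CPM in Pre 2'-FL and 198 to 902 CPM in Pre control. The other 6 summed to 38.5 to 69.1 CPM in Post 2'-FL and 47.9 to 91.4 CPM in Post control, against 114 to 169 CPM in Pre 2'-FL and 91.2 to 138 CPM in Pre control, and Post control 1 lay within its group. All 6 Paneth cell markers fell over both arms, with sums of 12131 to 29489 CPM in Post 2'-FL and 5872 to 7803 CPM in Post control, against 11475 to 36865 CPM in Pre 2'-FL and 19541 to 34415 CPM in Pre control. Of 6 smooth muscle markers 1 rose and 1 fell (2 fell corrected), with sums of 1292 to 1541 CPM in Post 2'-FL and 503 to 779.7 CPM in Post control, against 715 to 1683 CPM in Pre 2'-FL and 858 to 1139 CPM in Pre control. The sums of both lists were higher in all Post 2'-FL than in all Post control libraries. Adipocyte markers summed to 628 CPM in Pre 2'-FL 1, against 86.3 and 148 CPM in Pre 2'-FL 2 and 3.

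After resection, Lbr was the single enzyme called between bowels with and without the supplement. Between Post 2'-FL and Post control, 1 member was higher and 3 were lower in Post 2'-FL, beside 18.8% of all genes higher and 19.3% lower. In 2 members all Post 2'-FL libraries lay above and in 4 below all Post control libraries, beside 25.2% and 25.4% of all genes. The median over the 20 enzymes was 0.06 (0.02 corrected), against 0.02 over all genes. Single enzymes left room for differences either way: Mvk had 0.38 (95% interval -0.19 to 0.94), Cyp51 0.06 (95% interval -0.73 to 0.86) and Sqle -0.51 (95% interval -1.28 to 0.25). Insig1, Insig2 and Mbtps2 had 0.45 ± 0.34 (adjusted p = 0.324), 0.33 ± 0.26 (adjusted p = 0.33) and 0.25 ± 0.21 (adjusted p = 0.372). The higher gene was Lbr, with 1.11 ± 0.30 (adjusted p = 0.00975) and 1.02 (adjusted p = 0.0161) corrected. Its 3 Post 2'-FL libraries all exceeded the Post control libraries, and without Post 2'-FL 1 the change was 0.73 and was not called. The 3 lower genes as counted were Srebf2 with -1.13 ± 0.24 (adjusted p = 0.00262), Mbtps1 with -0.74 ± 0.23 (adjusted p = 0.0209) and Scap with -0.55 ± 0.21 (adjusted p = 0.0475), and corrected they had -0.25 (adjusted p = 0.416), -0.23 (adjusted p = 0.363) and 0.25 (adjusted p = 0.313), the last with the other sign, and corrected counts were 1 member higher beside 10.3% of all genes. Mbtps1 was at 30.9, 69.9 and 50.8 CPM in Post 2'-FL, against 83.2, 85.4 and 85.1 CPM in Post control, so it varied far more among the supplemented libraries. The call for Scap was lost in 11 of 12 fits without a library, that for Mbtps1 in 5, and that for Srebf2 in none. Without Post control 2, 6 members were higher and 1 lower, and without Post 2'-FL 1, Srebf2 alone was called. Without Post control 3 the count of members was 2, and it was 6 without Post control 1 or without Post 2'-FL 2. Across the fits without a library, 3279 to 5384 of all genes were called, the fewest without Post control 3.

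In the libraries labelled as taken before resection, 19 of 20 enzymes had a lower fitted level in the 2'-FL arm, but no member passed the test. With edgeR 0 of 28 members were called, beside 0.0152% of all genes, with 4 at an unadjusted p under 0.05, and DESeq2 also called 0, with 5 at an unadjusted p under 0.05. In both of these fits the Post libraries enter the shared spread. An edgeR fit of the Pre groups alone also called 0 members. It had 14 members at an unadjusted p under 0.05, beside 563 genes in all. The median change of the members, Pre 2'-FL minus Pre control, was -0.44, against 0.02 over all genes, of which 7002 of 13154 were above 0. In 17 members all Pre 2'-FL libraries lay below all Pre control libraries, beside 4.91% of all genes, and in 1, Mbtps1, above them, beside 4.31%. The largest difference was in Mvd, at 9.79, 11.7 and 11.7 CPM in Pre 2'-FL, against 22.6, 21.5 and 21.99 CPM in Pre control, a change of -0.997 ± 0.31 (adjusted p = 0.935). Lss and Sc4mol followed with -0.84 ± 0.33 and -0.86 ± 0.34. Control genes had -0.37 ± 0.23 for Srebf2, -0.02 ± 0.20 for Scap, -0.59 ± 0.35 for Insig1, 0.05 ± 0.26 for Insig2, 0.26 ± 0.23 for Mbtps1 and 0.27 ± 0.21 for Mbtps2, each with an adjusted p of 1. Insig2 had the other sign when corrected, at -0.0023. The lower baseline enters the 2'-FL arm's change after resection, since both use the Pre 2'-FL libraries. Dbp, Arntl and the other clock genes given above as not overlapping also differed in level between the Pre groups. Their part in the members' differences was not tested.

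The change after resection was compared between the arms directly. The difference, the 2'-FL arm's change minus the control arm's, was above 0 for all 20 enzymes as counted, with a median of 0.62 (0.47 corrected, 18 above 0), and no enzyme was called. Over all genes 6430 of 13154 were above 0, with a median of -0.03 (0.01 corrected). Most enzymes followed each other across libraries, so the 20 are not separate observations. Mvd had 1.23 ± 0.43 (adjusted p = 0.065), Idi1 1.19 ± 0.47 (adjusted p = 0.0935), Mvk 1.08 ± 0.38 (adjusted p = 0.0682) and Lbr 1.04 ± 0.41 (adjusted p = 0.0982). One member was called, Mbtps1, with -1.003 ± 0.32 (adjusted p = 0.049), beside 8.03% of all genes lower and 7.47% higher, and corrected it had -0.45 (adjusted p = 0.323). Its call was lost in every fit without a library except that without Post 2'-FL 2, in which 3 members were also called higher, and without Post control 2, 6 members were called, all higher. Across these fits 424 to 3024 of all genes were called, the most without Post 2'-FL 2. The other control genes had -0.76 ± 0.33 (adjusted p = 0.128) for Srebf2, -0.53 ± 0.29 (adjusted p = 0.215) for Scap, 1.03 ± 0.49 (adjusted p = 0.16) for Insig1, 0.28 ± 0.37 (adjusted p = 0.626) for Insig2 and -0.02 ± 0.30 (adjusted p = 0.974) for Mbtps2, with Srebf2 and Scap of the other sign when corrected (0.16 and 0.29). In the corrected fit edgeR called 0 of 13154 genes, with 2636 at an unadjusted p under 0.05, while DESeq2, as counted, called 4 members and 2612 genes.

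Lists of neighbouring lipid genes were counted in the same way, beside 25.3% of all genes higher and 31.1% lower over both arms (24.9% and 18.5% corrected). Of 18 tested genes of fatty acid synthesis and SREBP1, 10 fell and 1 rose over both arms, with a median of -0.82 (-0.31 corrected, 8 lower and 2 higher). Acaca, acetyl-CoA carboxylase, was at 5.68, 6.62 and 7.63 CPM in Post 2'-FL and 12.5, 10.2 and 21.05 CPM in Post control, against 51.5, 28.4 and 25.4 CPM in Pre 2'-FL and 32.2, 29.7 and 30.4 CPM in Pre control. Every Post library was below every Pre library, and the change was -1.73 ± 0.21 (adjusted p = 4.05e-05), or -0.86 corrected. Acly, which makes cytosolic acetyl-CoA for both pathways, and Gpam, which starts glycerolipid synthesis, changed by -1.10 ± 0.14 (adjusted p = 5.39e-05) and -1.75 ± 0.25 (adjusted p = 9.17e-05), and corrected by -0.50 and -1.10. Srebf1, which encodes SREBP1, changed by -0.90 ± 0.16 as counted and by -0.13 (adjusted p = 0.507) corrected. The control arm alone called 3 lower, and the 2'-FL arm 10 lower and 1 higher.

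Of 20 genes of sterol uptake, transport, storage and efflux, 11 fell and 4 rose over both arms as counted and 6 fell and 6 rose corrected, with medians of -0.45 and 0.03. Abca1, the efflux transporter that loads cholesterol onto apolipoprotein A, was at 10.04, 6.93 and 7.07 CPM in Post 2'-FL and 7.09, 6.40 and 7.02 CPM in Post control, against 68.8, 89.7 and 78.6 CPM in Pre 2'-FL and 119, 114 and 42.1 CPM in Pre control. All Post libraries lay below all Pre libraries, with a change of -3.52 ± 0.24 (adjusted p = 2.29e-06), or -2.66 corrected. Abcg1, a second efflux transporter, changed by -2.10 ± 0.28 (adjusted p = 6.37e-05), or -1.35 corrected. Gramd1c, a carrier of cholesterol from the plasma membrane, rose by 1.43 ± 0.16 (adjusted p = 2.54e-05), or 1.36 corrected. Among 8 genes of sterol-regulated degradation in the endoplasmic reticulum, 4 rose and 2 fell in either fit: Rnf145, a ubiquitin ligase of this system, changed by -1.50 ± 0.23 (adjusted p = 0.000153), Ufd1l by 0.57 ± 0.11 (0.24 and not called when corrected) and Rnf139 by 0.54 ± 0.12. Of 15 genes of the isoprenoid branches, 6 rose and 1 fell as counted (6 and 2 corrected), among them Fnta and Fntb, the subunits of farnesyltransferase, which moved in opposite directions with 0.64 ± 0.11 (adjusted p = 0.000388) and -0.76 ± 0.15 (adjusted p = 0.000942), and Coq2 of ubiquinone synthesis, with 0.91 ± 0.17.

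**Figure D4:**
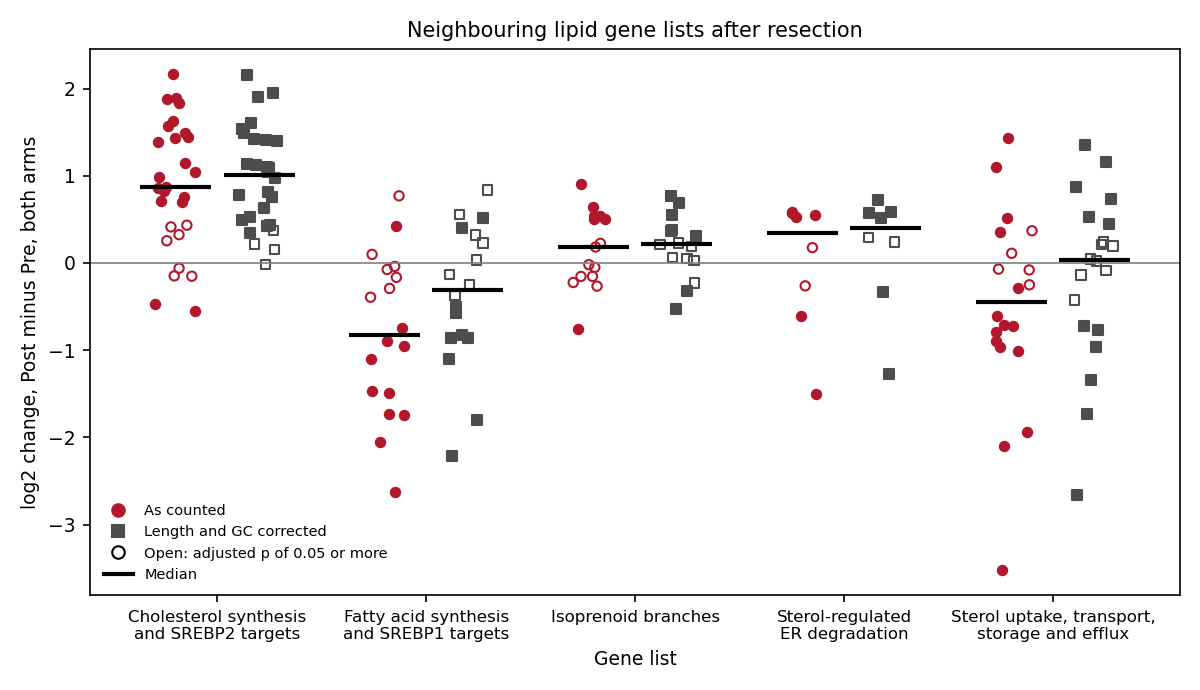
Log2 change over both arms, Post minus Pre, of each tested gene in the cholesterol set and in 4 neighbouring gene lists, as counted (circles) and corrected for length and GC (squares), filled where the adjusted p was under 0.05, with a bar at each median. The cholesterol set has medians of 0.87 and 1.01, the fatty acid list -0.82 and -0.31, and the sterol transport list -0.45 and 0.03.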

How the data were processed

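RNA from small bowel was sequenced in 12 libraries prepared with the TruSeq kit from about 1.5 µg of RNA, per the labels. The authors deposited expected counts per gene, not normalised; the build mm10 and DESeq are named in the submitters' processing notes, and the aligner, counter, annotation and strand are not given in the sources used here. Fractional values made up 15.2% to 20.5% of a library's entries, as in counts that share a read among genes. The 36186 entries were summed by Entrez ID to 35791 genes and rounded to whole counts. At totals of 5663275 to 9385266, 1 count was worth 0.107 to 0.177 CPM before scaling.

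Genes were kept with filterByExpr by group (13154), scaled with TMM and fitted in edgeR 4.0.16 (R 4.3.3) by quasi-likelihood on the means of the 4 groups, where all 12 libraries share the spread (8 residual degrees of freedom, biological coefficient of variation 23.8%). Tests were two-sided with Benjamini-Hochberg adjustment, and intervals are 95% intervals of the fit. The SE is the absolute change over the root of its F statistic. No libraries of a group held the same counts. For the correction, each library's log2 CPM (prior count 2), less the gene's mean, was regressed on natural splines (4 degrees of freedom each) of transcript length and GC content, taken from GENCODE M21 for 12660 tested genes, and the fitted values entered edgeR as offsets. RPKM divides CPM by the same length. The scripts were tested on simulated data. Alternatives were RLE size factors, no filter, the correction, a replicate block, the compared groups alone, DESeq2 1.42.0 and leaving out each library. Same-numbered libraries of different groups correlated between -0.2252 and 0.4187 in their deviations from group means, over 0.1 in 4 of 18 pairs, so the numbers were not taken as pairs.

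The members and all lists were chosen with earlier results of these data known. Named genes are every member, up to 12 called members by smallest p with their statistics, the control genes in every comparison, up to 3 called genes of a list by smallest p over both arms, and the 5 genes of nearest pattern; Srebf1, Dbp, Arntl, Lss and Sc4mol before resection, and the overlapping neighbours were added after their values were seen. In the marker lists Ciart was not matched, and Jchain is entered under its older symbol Igj. Fabp2, Igj, Cela1, Prss2, Cpb1 and the other clock genes named for the Pre groups were singled out after their values were seen.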

Additional observations from a re-analysis of the deposited data

Results flagged for a closer look

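The protease gene Mbtps1 changed differently between the arms after resection: the difference between the arms, 2'-FL minus control, was -1.003 ± 0.32 on the log2 scale (adjusted p = 0.049, edgeR quasi-likelihood test of the difference). Mbtps1 was at 30.9, 69.9 and 50.8 CPM in Post 2'-FL and 83.2, 85.4 and 85.1 CPM in Post control, against 83.8, 85.2 and 69.8 CPM in Pre 2'-FL and 64.5, 67.9 and 66.7 CPM in Pre control. All 3 Post control libraries lay within 3 CPM of each other and above all Pre control libraries, while the Post 2'-FL libraries ranged from 30.9 to 69.9 CPM. The call was lost in 11 of the 12 fits that left out a library, with changes between -1.31 and -0.75, and the corrected difference was -0.45 (adjusted p = 0.323).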

How the results depend on the processing

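Limits on depth were small, since every member had at least 60 counts in each library. Most directions that changed were those of long transcripts of control genes under the length and GC correction. By its construction it removes what goes with length or GC content, and other causes were not tested. Among single genes named, 41 calls were followed through the alternatives, and 10 were lost under the correction, 10 with the correction and block, 2 with the block, 2 with RLE size factors, 1 without the filter, 5 with the compared groups alone and 68 over all fits without a library. With the correction the changes were, in the control arm, Srebf2 0.30 and Scap 0.072; in the 2'-FL arm, Srebf2 0.45, Scap 0.36, Mbtps1 0.19; over both arms, Srebf2 0.38, Scap 0.22, Mbtps1 0.42; for Post 2'-FL minus Post control, Scap 0.25; and for the difference between arms, Srebf2 0.16, Scap 0.29. With the correction and a replicate block they were Srebf2 0.28 and Scap 0.0679 in the control arm, Srebf2 0.46, Scap 0.37, Mbtps1 0.18 in the 2'-FL arm, Srebf2 0.37, Scap 0.22, Mbtps1 0.41 over both arms, Scap 0.25 after resection and Srebf2 0.18, Scap 0.30 for the difference between arms. With the correction and without Post control 1, an alternative chosen after seeing the data, they were Srebf2 0.53, Scap 0.12 in the control arm and Srebf2 0.50, Scap 0.25, Mbtps1 0.43 over both arms, and 18 members and 656 genes were called in the control arm. Before resection the correction gave -0.0023 for Insig2, and the difference between arms was 0.0254 for Mbtps2 with RLE size factors and 0.0093 with DESeq2.

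Counts moved as follows. DESeq2 called 13 members in the control arm, 24 genes before resection and 4 members for the difference between arms. The correction called 4717 genes in the 2'-FL arm (4607 with the block), 1 member and 2860 genes after resection (1 and 2723 with the block), and 0 members and 0 genes for the difference between arms (0 and 0 with the block). Mbtps1 was also lost there, leaving 0 members, with RLE size factors, without the filter on low counts and with the replicate block alone. Fitting the compared groups alone gave 2 members after resection and 1 gene before it, and no filter gave 12 genes before it. With the replicate block alone, the counts of members were 22 in the 2'-FL arm, 6 in the control arm, 22 over both arms, 5 after resection and 0 before it, and no count of members other than that for the difference between arms moved by over 1.5 times. Leaving out one library gave 2 to 15 members and 265 to 1843 genes in the control arm, 19 to 23 and 6215 to 7375 in the 2'-FL arm, 20 to 22 and 6653 to 7478 over both arms, 1 to 7 and 3279 to 5384 after resection, 0 and 0 to 17 before it, and 0 to 6 and 424 to 3024 for the difference between arms. Leaving out a library turned the sign, among the values named, of Srebf2 in the control arm (-0.237 to 0.16), of Scap (-0.11 to 0.12) and Insig2 (-0.12 to 0.26) before resection, and of Mbtps2 for the difference between arms (-0.20 to 0.18).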
